A study of Mus musculus with 15 samples.

Results

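Transcripts that define macrophages were followed in cultures of primary mouse lung fibroblasts, the matrix-making cells grown out of lung tissue. A list of 48 macrophage identity genes was looked up by gene name, and 47 of them were measured among the 18078 genes of each library. Marco was not analysed here. The members are known as blood-lineage genes in 40 cases, and 7 are known in other cell types too (Lgals3, Apoe, Sirpa, Cd14, Cd36, Mertk and Gpnmb). All 15 cultures were cells of wild-type BALB/cJ mice with no genetic change, collected 20 h after stimulation. The 5 groups of 3 libraries had received IL-33 with IL-13 and IL-17A (the triple combination), IL-33 with IL-13, IL-33 with IL-17A, IL-33 alone, or no cytokine (untreated). Each treated group thus carried IL-33, an alarmin released by damaged barrier cells, while IL-13 is a type 2 cytokine and IL-17A a cytokine of type 3 immunity. The study asks how lung fibroblasts answer these cytokines and what they release that acts on macrophages. The sources used here do not give animals, passage number, any purification step, replicate numbers or batches. P-values below therefore reflect the spread among libraries of a group, possibly a technical one.

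Macrophages are phagocytes of the blood lineage that live in every tissue, in the lung both in the airspaces and in the connective tissue. The transcription factor PU.1, encoded by Spi1, sets up their gene programme by binding purine-rich sites with a GGAA core, and signals from the receptor Csf1r keep the cells alive. Textbook macrophages respond to IL-4 and IL-13 through STAT6, which binds palindromic TTC and GAA letters, with more mannose receptor (Mrc1) and dectin-1 (Clec7a). Fibroblasts are not known to use most of these genes. In bulk RNA, fewer cells of a type and less RNA per cell cannot be told apart.

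The promoters of 4 members are shown because these genes had some of the largest changes described here or hold the motifs of both factors. They were taken from RefSeq on GRCm38.p6, each reading 5′ to 3′ on the gene's strand over 300 bases. Capitals mark GAGGAA on either strand (TTCCTC where it lies on the opposite strand), GAGGAAGT, which contains GAGGAA, and TTCNNNNGAA. Clec7a lies at chr6:129472730-129473029 on the minus strand, Mrc1 at chr2:14229164-14229463 on the plus strand, Cd53 at chr3:106790100-106790399 on the minus strand and Cybb at chrX:9469275-9469574 on the minus strand.
Clec7a: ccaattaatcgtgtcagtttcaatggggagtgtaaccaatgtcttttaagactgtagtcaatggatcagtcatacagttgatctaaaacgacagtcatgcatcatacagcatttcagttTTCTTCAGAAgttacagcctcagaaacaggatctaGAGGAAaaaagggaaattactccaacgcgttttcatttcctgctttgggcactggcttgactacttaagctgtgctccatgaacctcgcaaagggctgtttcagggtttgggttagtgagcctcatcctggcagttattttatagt
Mrc1: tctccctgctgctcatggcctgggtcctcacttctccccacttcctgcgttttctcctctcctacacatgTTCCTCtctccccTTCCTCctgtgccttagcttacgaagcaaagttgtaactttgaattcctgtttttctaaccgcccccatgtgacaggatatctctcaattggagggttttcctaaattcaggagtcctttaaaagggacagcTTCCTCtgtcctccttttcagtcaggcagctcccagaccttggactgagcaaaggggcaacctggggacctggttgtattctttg
Cd53: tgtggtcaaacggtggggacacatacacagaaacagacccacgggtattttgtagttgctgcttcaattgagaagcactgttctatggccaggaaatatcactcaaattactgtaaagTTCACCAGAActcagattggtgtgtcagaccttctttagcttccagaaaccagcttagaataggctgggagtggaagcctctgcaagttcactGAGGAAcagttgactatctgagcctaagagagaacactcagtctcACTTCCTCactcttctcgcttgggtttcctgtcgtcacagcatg
Cybb: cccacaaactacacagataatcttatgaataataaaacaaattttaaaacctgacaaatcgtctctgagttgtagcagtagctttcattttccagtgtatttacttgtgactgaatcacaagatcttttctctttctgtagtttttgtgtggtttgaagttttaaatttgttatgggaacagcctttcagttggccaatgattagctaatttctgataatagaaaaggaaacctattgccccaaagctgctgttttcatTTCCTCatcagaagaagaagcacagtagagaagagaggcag
The Cybb window starts from the RefSeq start site, which lies inside the gene span of the files. Of the 47 members, 33 had a promoter in the RefSeq table. GAGGAA was found in 21 of the 33 (63.6%), against 26.4% of the 9791 tested genes with a promoter and 28.3% of all 27025 promoters of this length. GAGGAAGT was found in C1qc, Cd53 and Pld4, which is 9.09% of the members' promoters against 3.16% of those of tested genes. TTCNNNNGAA was found in 6 of the 33, those of Cd36, Cd53, Clec7a, Itgax, Lgals3 and Ms4a7 (18.2%), against 5.36%. A match describes these letters and says nothing of binding.

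The deposited values are TPM, reads per length scaled to 1000000 in each library. The length used is the whole gene span, introns included, so levels of different genes are compared here after rescaling to summed exon length (exon-scaled TPM). Values of 1 gene across libraries, and sums and means over 1 list of genes, are in TPM as deposited. Whole reads were recovered from TPM and span, giving 10554595 to 15123270 reads a library. The 13 protein-coding genes of the mitochondrial genome held 3.50% to 3.87% of TPM in 6 libraries and 4.77% to 6.13% in the other 9. The 6 are replicate 1 of the triple combination, all 3 of IL-33 with IL-13, and replicates 2 and 3 of IL-33 with IL-17A, numbered in accession order. They are no group of the study, and the labels name no batch. As the IL-33 with IL-13 libraries were all inside this set while the IL-33 and untreated libraries were all outside it, differences between these groups and the split cannot be told apart.

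Macrophage transcripts were abundant in all 15 cultures. The 47 members had a median exon-scaled level of 300.5 TPM over all libraries, against 11.03 TPM for all genes in the files. On that scale 45 members averaged 10 TPM or more, 33 averaged 100 TPM or more and 5 averaged 1000 TPM or more. As deposited, each member was at 1 TPM or more in every library except Cd86, which was lower in untreated cultures. Together the members took 3.09% to 3.82% of TPM in a library, or 1.87% to 2.08% of the recovered reads. Even the shallowest member, Aif1, had at least 11 reads in every library, and 41 members had over 100 in each.

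On the exon-length scale Lyz2, the gene of the lysozyme that myeloid cells secrete, averaged 11781 TPM, the highest level of any gene in the files. Apoe, a lipid carrier also made outside the blood lineage, averaged 4301 TPM on that scale, against 3956 TPM for the collagen gene Col1a1, the leading fibroblast marker. The C1q chain genes C1qa and C1qb followed with 1861 and 1439 TPM, and Cd68, a lysosomal membrane protein, with 1161 TPM. The lowest exon-scaled levels were those of Itgax, the CD11c integrin chain, at 4.01 TPM, and of Aif1, the actin-binding protein Iba1, at 6.95 TPM. Levels were close across libraries for most members: the highest library was a median of 1.63 times the lowest, with 18 members under 1.5 times and 14 over 2 times. The widest ranges were those of Clec4n (10.5 times), Aif1 (7.32), Clec7a (6.35), Cd86 (5.05), Cybb (3.89) and Mrc1 (3.25).

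**Figure D1:**
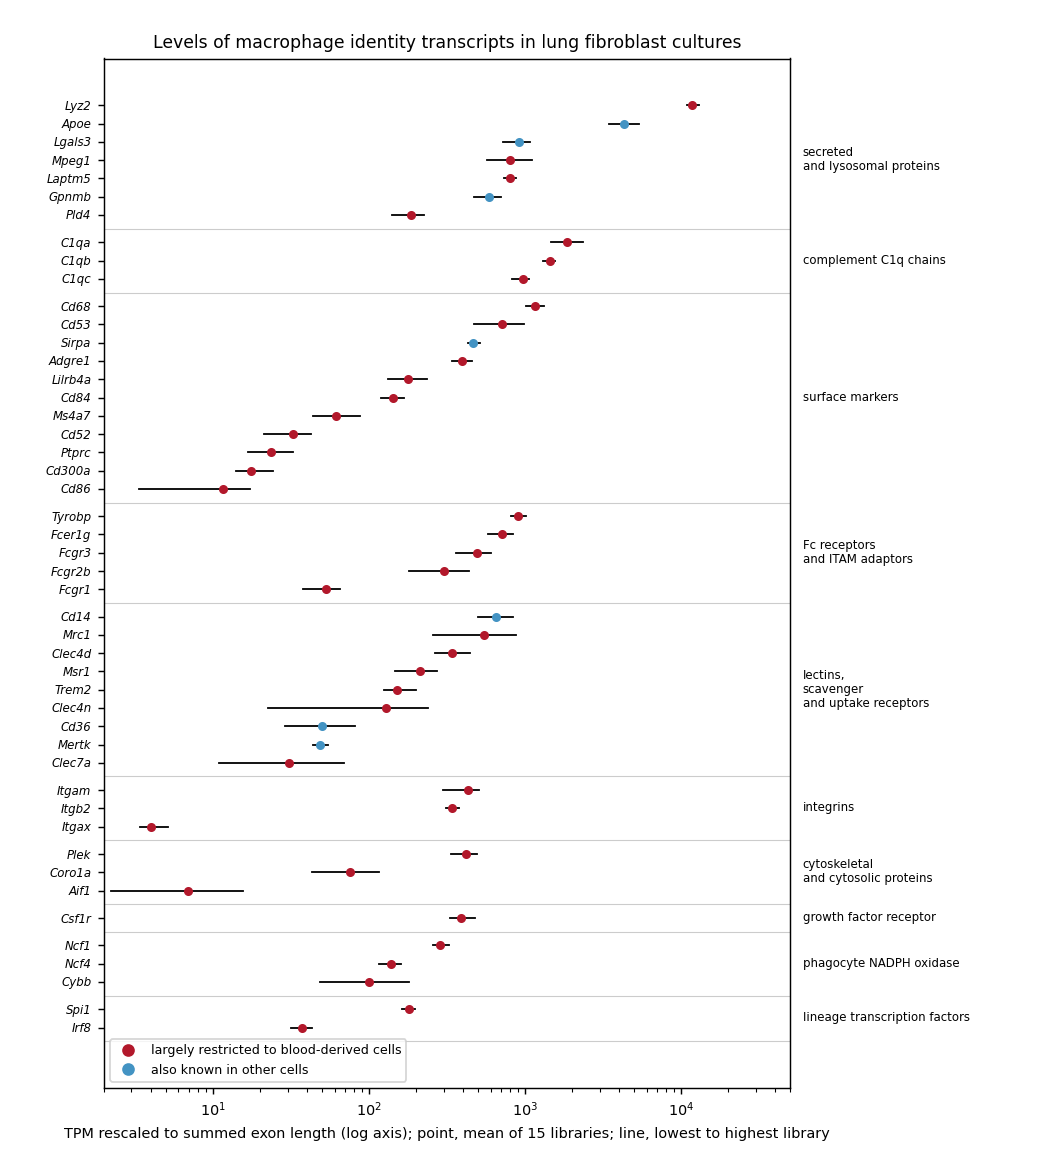
Exon-scaled TPM of the 47 members on a log axis, grouped by role, with points for the mean of 15 libraries and lines from the lowest to the highest library. Lyz2 stands highest at 11781 TPM and Itgax lowest at 4.01 TPM, and the longest lines belong to Clec4n, Aif1, Clec7a, Cd86 and Cybb.

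Markers of other cells were checked in the same libraries, with levels on the exon scale. Fibroblast markers, 14 genes, had a median level of 499.5 TPM, led by Col1a1. A further list of 69 measured myeloid genes had a median of 47.4 TPM, led by Ctss, the gene of the lysosomal protease cathepsin S, at 1836 TPM. The 9 measured alveolar macrophage markers, Mrc1 and Itgax among them, had a median of 3.54 TPM. Of these, Mrc1 averaged 545 TPM, Fabp5 199, Fabp4 15.2, Pparg 3.54, Chil3 2.60 and Siglecf 0.375 TPM. Chil3 was at 0 in all untreated and IL-33 libraries. Medians were 1.13 TPM for monocyte markers (highest Plac8, 219.6 TPM), 1.75 for dendritic cell markers (Cd24a, 47.8), 4.64 for neutrophil and eosinophil markers (S100a8, 40.9) and 5.98 for mast cell and basophil markers (Mcpt8, 127). They were 0.445 TPM for lymphocyte markers (Il7r, 15.5), 0.916 for epithelial markers (Cdh1, 5.34) and 1.73 for endothelial markers (Vwf, 12.3). No marker of these lists was at 0 in all 15 libraries.

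The sums of several of these lists lay apart between groups. The 6 measured neutrophil and eosinophil markers summed to 160 to 186 TPM as deposited with the triple combination, 89.1 to 99.9 with IL-33 plus IL-13, 139 to 159.8 with IL-33 plus IL-17A, 68.6 to 93.2 with IL-33 and 22.9 to 30.1 TPM in untreated cultures. S100a8, which encodes a subunit of calprotectin, averaged 136 TPM with the triple combination and 17.2 TPM in untreated cultures, and Camp, the cathelicidin gene, 34.9 and 0.306 TPM. These genes held most of the sums, and Csf3r on the same list went the other way, at 3.56 and 7.48 TPM. Of the 3 genes of this list that were tested, 2 were called higher and 1 lower with the triple combination against untreated. The 4 mast cell and basophil markers summed to 148 to 170.2 TPM with the triple combination, 149 to 162 with IL-33 plus IL-13, 130 to 146 with IL-33 plus IL-17A, 123 to 134 with IL-33 and 97.3 to 105 TPM in untreated cultures. Monocyte markers summed to 122 to 125 TPM with the triple combination and 130 to 142 TPM with IL-33 plus IL-17A. Their sums were 89.3 to 99.6 TPM with IL-33 plus IL-13, 90.7 to 96.7 with IL-33 and 82.3 to 89.7 TPM in untreated cultures. Sums of dendritic cell markers were 56.4 to 66.1 TPM with the triple combination and 48.6 to 67.0 with IL-33 plus IL-17A. They were 61.7 to 73.3 TPM with IL-33 plus IL-13, 70.0 to 82.4 with IL-33 and 88.6 to 111 TPM in untreated cultures. Single genes weighed heavily in these sums, with means given for the triple combination and then untreated cultures. Most of the dendritic cell sum was Cd24a, at 53.8 and 88.9 TPM, while Cd74 had 2.16 and 0.405 TPM. Most of the mast cell and basophil sum was Mcpt8, at 148 and 86.3 TPM, while Tpsb2 had 0.228 and 1.01 TPM. On the monocyte list Plac8 had 72.3 and 37.5 TPM, and Spn 2.48 and 7.73 TPM. The part of such cells, or of the same genes in other cells, in the members' changes was not tested.

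The balance between the mean levels of the macrophage and fibroblast lists moved with treatment. The geometric mean of the 40 blood-lineage members was 102 to 109 TPM with the triple combination, 101 TPM in each IL-33 with IL-13 library, 111 to 119 with IL-33 plus IL-17A, 112 to 117 with IL-33 and 105 to 111 TPM in untreated cultures. That of the 14 fibroblast markers was 219.7 to 228 TPM with the triple combination, 236 to 240.3 with IL-33 plus IL-13, 246 to 262 with IL-33 plus IL-17A, 270.2 to 273 with IL-33 and 273 to 281 TPM in untreated cultures. The first divided by the second was 0.447 to 0.491 with the triple combination, 0.420 to 0.429 with IL-33 plus IL-13, 0.446 to 0.456 with IL-33 plus IL-17A, 0.411 to 0.431 with IL-33 and 0.375 to 0.407 in untreated cultures. This quotient was thus higher in each treated library than in every untreated one, while the fibroblast mean was lower, with IL-33 alone by a narrow margin. The 14 fibroblast markers did not move together, as 3 were called higher and 10 lower with the triple combination against untreated. Dcn averaged 320 TPM with the triple combination and 129 TPM in untreated cultures, and Postn 291 and 235 TPM. Col1a1 averaged 3189 and 6107 TPM, in the same order. The part of either cell type's number or of its RNA per cell in these quotients was not tested.

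The lineage genes come first. Spi1, the gene of PU.1, had 41.2, 39.4 and 42.1 TPM with the triple combination, 39.6, 42.2 and 40.8 with IL-33 plus IL-13, 47.7, 44.5 and 47.7 with IL-33 plus IL-17A, 44.3, 42.2 and 45.2 with IL-33 and 47.5, 45.2 and 47.8 TPM in untreated cultures. All 6 libraries with IL-13 lay below the untreated range, and those with IL-17A but no IL-13 overlapped it. Its log2 change on the TPM + 1 scale was -0.19 ± 0.04 with the triple combination (SE, limma adjusted p = 0.0036), a call that was lost under median-ratio scaling, an alternative that sets the typical gene to no change. Irf8, a partner of PU.1, averaged 33.8 ± 0.41 TPM with the triple combination, 34.4 ± 2.07 with IL-33 plus IL-13 and 45.8 ± 0.24 TPM in untreated cultures (SD, n = 3 each), a log2 change of -0.43 ± 0.04 for the triple combination (adjusted p = 5.9e-06).

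Csf1r, the receptor for the macrophage growth factors CSF-1 and IL-34, had 183, 188 and 205 TPM with the triple combination, 186, 179.6 and 187 with IL-33 plus IL-13, 225, 199 and 211 with IL-33 plus IL-17A, 218, 218 and 235 with IL-33 and 260.3, 254 and 271 TPM in untreated cultures. Every treated library was below every untreated one. The log2 changes against untreated were -0.45 ± 0.05 for the triple combination, -0.51 ± 0.05 for IL-33 with IL-13, -0.31 ± 0.05 for IL-33 with IL-17A and -0.23 ± 0.05 for IL-33 (limma adjusted p = 2.4e-05, 1.0e-05, 0.00072 and 0.012, in that order). The call with IL-33 plus IL-17A was lost outside the low mitochondrial share, where that group has 1 library.

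Adgre1, which encodes the F4/80 antigen used to stain mouse macrophages, had 32.5, 34.0 and 34.3 TPM with the triple combination, 35.1, 34.6 and 32.3 with IL-33 plus IL-13, 26.5, 27.2 and 26.8 with IL-33 plus IL-17A, 27.3, 26.7 and 28.7 with IL-33 and 30.9, 32.3 and 33.0 TPM in untreated cultures. The 6 libraries without IL-13 but with IL-33 were below all others. Ptprc, the pan-leukocyte CD45 phosphatase, had 8.48, 10.4 and 11.1 TPM with the triple combination, 8.15, 8.23 and 8.19 with IL-33 plus IL-13, 12.8, 10.6 and 10.9 with IL-33 plus IL-17A, 11.7, 12.3 and 13.9 with IL-33 and 13.8, 15.1 and 16.3 TPM in untreated cultures. Its IL-33 with IL-13 libraries were the lowest and its untreated libraries the highest, with a single IL-33 library reaching into the untreated range. Ptprc changed by -0.80 ± 0.10 on the log2 scale with IL-33 plus IL-13 against untreated (SE, limma adjusted p = 3.8e-05), while Adgre1 at 0.08 ± 0.04 was not called there.

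Among surface proteins, Cd68 had 2237, 2261 and 2221 TPM with the triple combination, 2131, 2106 and 2257 with IL-33 plus IL-13, 2289.5, 1939 and 1962 with IL-33 plus IL-17A, 2379, 2375 and 2227 with IL-33 and 2589, 2612 and 2414 TPM in untreated cultures. Untreated libraries were the highest and the other groups overlapped each other. Among secreted proteins, Lyz2 had 8628, 8642 and 8944 TPM with the triple combination, 8903, 8718 and 8808 with IL-33 plus IL-13, 9065, 10082 and 8869.6 with IL-33 plus IL-17A, 9449, 9568 and 9864 with IL-33 and 10102, 10467 and 10329 TPM in untreated cultures. No treated library reached the untreated range. With the triple combination Lyz2 changed by -0.24 ± 0.04 against untreated (SE, limma adjusted p = 0.00049), and this call was lost under median-ratio scaling too. For Cd68 the change was -0.18 ± 0.06 (adjusted p = 0.025), also lost under that scaling.

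The C1q genes encode the recognition subunit of complement, which tissue macrophages make. C1qa had 2147, 1582 and 1633 TPM with the triple combination, 2349.9, 2456 and 2181 with IL-33 plus IL-13, 1878, 2505 and 2466 with IL-33 plus IL-17A, 1870.4, 1884 and 1808 with IL-33 and 1824, 1837 and 1842 TPM in untreated cultures. The 6 libraries with a low mitochondrial share held the 6 highest values of C1qa, whatever their treatment. With a term for that set in the model, C1qa was 0.41 ± 0.04 higher inside it on the log2 scale and Apoe 0.25 ± 0.05 higher (limma adjusted p = 0.0025 and 0.0089), while 14 members were lower, among them Clec7a (-0.39 ± 0.07), Fcgr2b (-0.35 ± 0.06) and Cd86 (-0.32 ± 0.10). The term was called for 16 of the 47 members (34.0%) against 16.3% of all genes tested. It rests on the 2 groups that have libraries of both kinds. C1qb and C1qc, whose chains join that of C1qa in the same protein, had no such call (adjusted p = 0.60 and 0.12).

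**Figure D2:**
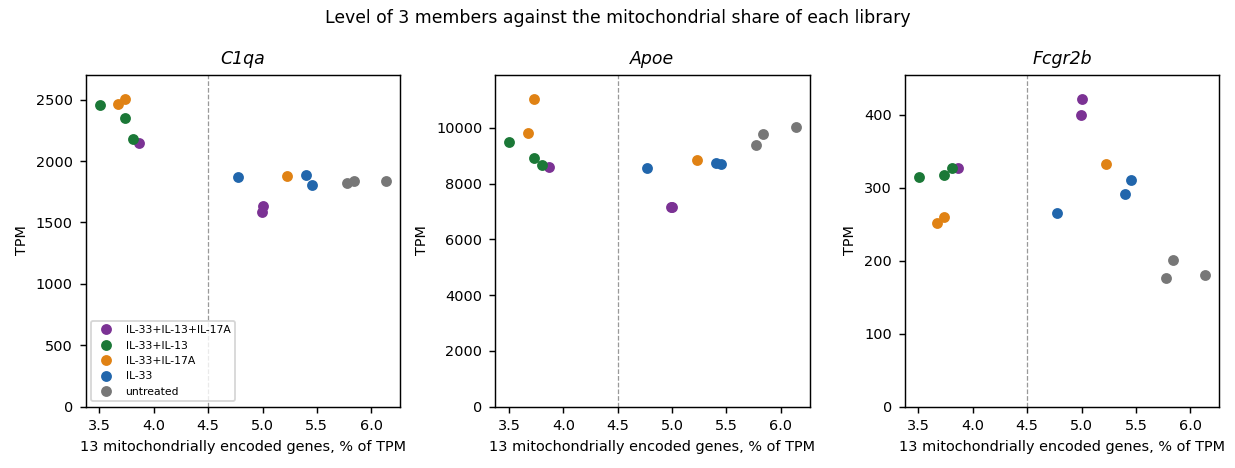
TPM of C1qa, Apoe and Fcgr2b in each of the 15 libraries against the share of TPM held by the 13 mitochondrially encoded genes, in percent, with colours for the 5 groups and a dashed line at 4.5%. C1qa lies between 2147 and 2505 TPM left of the line and between 1582 and 1884 TPM right of it.

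Fc receptors bind antibody-coated particles and signal through adaptors with ITAM motifs. The adaptor gene Tyrobp had 476, 428 and 426 TPM with the triple combination, 433, 456 and 438 with IL-33 plus IL-13, 481, 506 and 529 with IL-33 plus IL-17A, 479.5, 503 and 455 with IL-33 and 508, 495 and 466 TPM in untreated cultures. Only the libraries with IL-33 plus IL-13 stayed clear of the untreated range, and their change (-0.15 ± 0.05, limma adjusted p = 0.042) was lost as a call under median-ratio scaling. The inhibitory receptor gene Fcgr2b and the activating low-affinity receptor gene Fcgr3 were called higher in all 4 treated groups, Fcgr3 with IL-33 plus IL-17A no longer so when the compared groups were fitted alone. Fcgr2b averaged 383 ± 49.2 TPM with the triple combination, 319.6 ± 6.68 with IL-33 plus IL-13, 281 ± 44.2 with IL-33 plus IL-17A, 289 ± 22.6 with IL-33 and 186 ± 12.7 TPM in untreated cultures (SD, n = 3 each). Fcgr1, the high-affinity receptor gene, averaged 29.4 ± 2.62 TPM with the triple combination, 27.5 ± 1.10 with IL-33 plus IL-13, 44.5 ± 1.20 with IL-33 plus IL-17A, 44.6 ± 1.94 with IL-33 and 41.2 ± 1.56 TPM in untreated cultures (SD, n = 3 each), so the 2 groups with IL-13 stood apart below.

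Of the uptake receptors, Cd14, a co-receptor for bacterial lipopolysaccharide also made by other cells, had 2196, 2055 and 2073 TPM with the triple combination, 1793, 1628 and 1767 with IL-33 plus IL-13, 2285, 2301 and 2497 with IL-33 plus IL-17A, 1977, 1873 and 2026 with IL-33 and 1629.5, 1518 and 1556 TPM in untreated cultures. The IL-33 with IL-17A libraries were the highest, and IL-33 with IL-13 reached down into the untreated range. Clec4n, the fungal sensor dectin-2, had 27.8, 30.2 and 31.3 TPM with the triple combination, 21.3, 20.7 and 19.0 with IL-33 plus IL-13, 59.6, 56.5 and 58.7 with IL-33 plus IL-17A, 45.4, 42.1 and 46.1 with IL-33 and 5.67, 8.12 and 7.49 TPM in untreated cultures. Its 5 groups did not overlap at all. Clec7a, the beta-glucan receptor dectin-1, had 38.0, 48.3 and 46.5 TPM with the triple combination, 36.8, 34.2 and 39.4 with IL-33 plus IL-13, 11.6, 7.60 and 8.48 with IL-33 plus IL-17A, 9.65, 10.6 and 10.03 with IL-33 and 8.43, 8.92 and 8.07 TPM in untreated cultures. The 6 libraries with IL-13 stood far above the other 9. With a term for the low mitochondrial share, Clec7a was called higher than in untreated cultures without IL-13 too. Its log2 changes were then 0.35 with IL-33 plus IL-17A and 0.23 with IL-33 (limma adjusted p = 0.0059 and 0.027). These 2 receptor genes thus differed in which added cytokine went with their highest level.

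Mrc1, the mannose receptor, had 142, 159 and 161 TPM with the triple combination, 142, 147 and 147 with IL-33 plus IL-13, 81.3, 72.5 and 70.5 with IL-33 plus IL-17A, 77.8, 82.4 and 83.1 with IL-33 and 50.4, 54.0 and 49.6 TPM in untreated cultures. It lay in 3 separate bands, with the IL-13 libraries highest and the untreated ones lowest. Cd36, a fatty acid and lipoprotein receptor, had 6.63, 7.99 and 8.12 TPM with the triple combination, 6.61, 6.33 and 6.69 with IL-33 plus IL-13, 3.12, 2.94 and 3.29 with IL-33 plus IL-17A, 3.69, 2.92 and 3.21 with IL-33 and 4.48, 4.88 and 4.78 TPM in untreated cultures. Here the untreated libraries lay between those with IL-13 above and those with IL-33 but no IL-13 below. Msr1, the class A scavenger receptor, had 63.7, 73.8 and 74.9 TPM with the triple combination, 58.4, 58.6 and 59.3 with IL-33 plus IL-13, 85.0, 78.2 and 81.7 with IL-33 plus IL-17A, 69.6, 73.2 and 78.7 with IL-33 and 46.5, 48.1 and 49.3 TPM in untreated cultures. Each treated library of Msr1 was above the untreated ones. The lipid sensor gene Trem2 went the other way, with means of 243 ± 6.46 TPM with the triple combination, 261 ± 4.87 with IL-33 plus IL-13, 281 ± 14.8 with IL-33 plus IL-17A, 287 ± 6.80 with IL-33 and 372 ± 14.2 TPM in untreated cultures (SD, n = 3 each).

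Integrin alpha M, encoded by Itgam, is the CD11b chain of complement receptor 3. Itgam had 129.7, 136 and 134 TPM with the triple combination, 115, 118 and 117 with IL-33 plus IL-13, 135, 129 and 127 with IL-33 plus IL-17A, 116, 117 and 118 with IL-33 and 82.6, 81.3 and 83.2 TPM in untreated cultures. The 6 libraries with IL-17A were the highest and the untreated ones the lowest. The log2 changes against untreated were 0.69 ± 0.03 with the triple combination, 0.50 ± 0.03 with IL-33 plus IL-13, 0.66 ± 0.03 with IL-33 plus IL-17A, and 0.50 ± 0.03 with IL-33 (limma adjusted p = 1.9e-09, 7.1e-08, 5.2e-09 and 1.9e-07, in that order). Its partner chain gene Itgb2 stayed between 81.7 and 97.3 TPM in all libraries, and Itgax between 2.31 and 3.55 TPM.

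The phagocyte NADPH oxidase makes the superoxide burst from a membrane subunit, gp91phox (Cybb), and cytosolic subunits that include p47phox (Ncf1) and p40phox (Ncf4). Cybb had 16.0, 17.9 and 19.2 TPM with the triple combination, 16.5, 17.1 and 17.1 with IL-33 plus IL-13, 37.5, 33.2 and 35.1 with IL-33 plus IL-17A, 35.9, 36.3 and 41.4 with IL-33 and 57.2, 56.0 and 62.1 TPM in untreated cultures. The levels fell into 3 bands, with the IL-13 libraries lowest, in the reverse order of Mrc1. Ncf1 had 318, 294 and 295 TPM with the triple combination, 303, 308 and 316 with IL-33 plus IL-13, 369, 344 and 373 with IL-33 plus IL-17A, 341, 343 and 348 with IL-33 and 333, 322 and 332 TPM in untreated cultures. All Ncf1 values lay within 1.27 times of each other, whereas Cybb spanned 3.89 times. Ncf4 averaged 45.3 ± 4.63 TPM with the triple combination and 48.4 ± 5.46 TPM in untreated cultures (SD, n = 3 each), and was called in no comparison with untreated.

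Of the cytosolic proteins, Aif1 had 1.98, 2.82 and 2.83 TPM with the triple combination, 2.88, 2.02 and 3.13 with IL-33 plus IL-13, 4.79, 7.33 and 6.62 with IL-33 plus IL-17A, 6.28, 6.82 and 7.16 with IL-33 and 14.5, 12.5 and 13.8 TPM in untreated cultures. The same 3 bands as for Cybb appeared, on 11 to 74 reads a library. Coro1a, the actin regulator coronin 1A, had 49.0, 52.6 and 44.8 TPM with the triple combination, 64.4, 61.4 and 60.2 with IL-33 plus IL-13, 65.7, 97.2 and 97.2 with IL-33 plus IL-17A, 81.2, 86.3 and 71.0 with IL-33 and 124, 122 and 112 TPM in untreated cultures. Every treated library was below the untreated ones. Coro1a overlaps Bola2 on the opposite strand (109 TPM), and use of strand is not stated, so its values are uncertain. Plek likewise overlaps Cnrip1 (15.6 TPM), Csf1r overlaps Hmgxb3 (14.7 TPM) and Ncf1 overlaps Gtf2ird2 (2.56 TPM). Itgam, Irf8 and Lilrb4a overlap genes of their own strand at 5.88 TPM or less. Of the lysosomal proteins, perforin 2 is a pore-forming protein, and its gene Mpeg1 had 1613, 1654 and 1695 TPM with the triple combination, 1655, 1619.7 and 1639 with IL-33 plus IL-13, 2520.3, 2543 and 2542 with IL-33 plus IL-17A, 2524, 2561 and 2659 with IL-33 and 3149.8, 3253 and 3316 TPM in untreated cultures. It showed the same 3 bands as Aif1, without overlap.

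**Figure D3:**
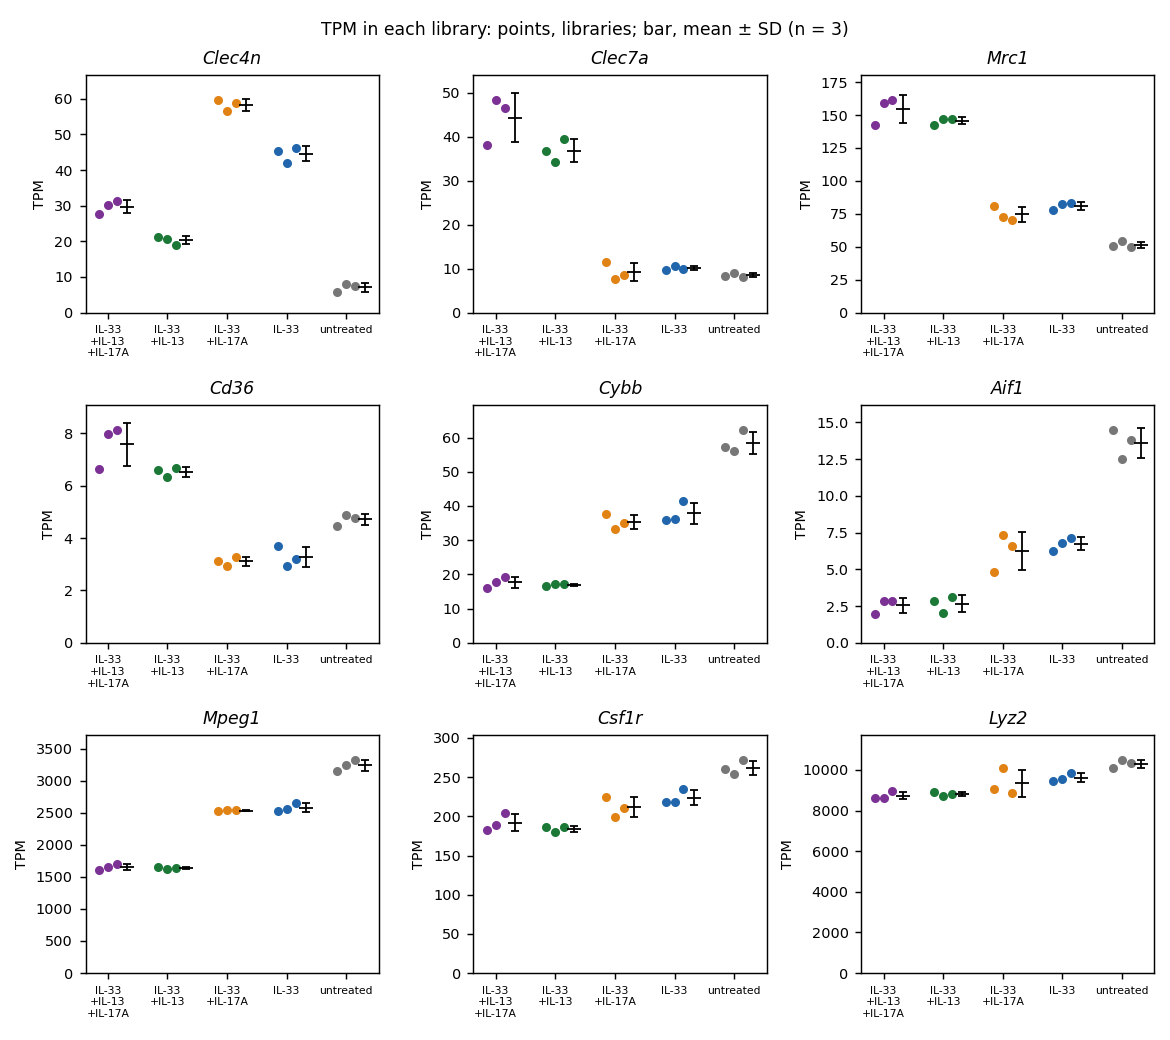
TPM of 9 members in every library, with groups along the x axis, points for libraries and bars for the mean ± SD of 3. Clec4n is highest with IL-33 plus IL-17A (56.5 to 59.6 TPM), Clec7a, Mrc1 and Cd36 are highest in both groups with IL-13, and Cybb, Aif1 and Mpeg1 are lowest there.

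IL-33 alone was compared with untreated cultures first. Of the 47 members 12 rose and 12 fell, and 23 were not called. Calls covered 51.1% of the members, against 14.2% of all 13887 genes tested in this comparison, 5.92% higher and 8.28% lower. Shares over all genes, here and elsewhere, are not matched to the members for level, and most members are highly expressed. The median log2 change was -0.05 for the members and also -0.05 for all genes. Clec4n rose to 44.5 ± 2.11 TPM with IL-33, against 7.09 ± 1.27 TPM in untreated cultures (SD, n = 3 each), which on the log2 scale was 2.5 ± 0.10 (SE, adjusted p = 2.0e-09 by limma). The T cell co-stimulator gene Cd86 had 2.36, 2.30 and 2.45 TPM with IL-33 against 0.607, 0.948 and 0.991 TPM in untreated cultures, with no overlap. Its change was 0.87 ± 0.13 (adjusted p = 0.00043), and 1.57 when recovered reads were tested instead of log2(TPM + 1), which compresses such low values. Mrc1 rose by 0.65 ± 0.06 (1.1e-05). Aif1, Cybb and Coro1a had the largest falls, at -0.91 ± 0.15, -0.62 ± 0.07 and -0.58 ± 0.13 (adjusted p = 0.0012, 8.8e-05 and 0.0084, in that order).

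By role, 5 of 9 uptake receptor genes rose with IL-33 (Cd14, Clec4d, Clec4n, Mrc1 and Msr1) and 2 fell (Cd36 and Trem2). Of 5 genes of Fc receptors and adaptors 2 rose (Fcgr2b and Fcgr3), and of 3 integrin genes 2 (Itgam and Itgb2, the call of Itgb2 being lost with the compared groups alone). None of the 3 C1q genes was called, and of 7 secreted and lysosomal genes Gpnmb and Mpeg1 fell. The other 62 tested myeloid genes had 11 rises and 16 falls, led by the transcription factor gene Tfec (1.43 ± 0.05) and the shared and mouse-specific beta chain genes of cytokine receptors, Csf2rb (0.93 ± 0.03) and Csf2rb2 (0.86 ± 0.05). Cd5l (-0.89 ± 0.22), Cd180 (-0.81 ± 0.09) and Fyb (-0.71 ± 0.06) had the largest falls there.

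The same 3 untreated libraries served the other comparisons with untreated cultures, so these comparisons are not independent and their values are given side by side. With IL-33 plus IL-17A 13 members rose and 18 fell, 66.0% of them, where 37.7% of all genes were called, 10.7% higher and 27% lower. The split became 17 rises and 13 falls under median-ratio scaling. Clec4n changed by 2.89 ± 0.10, Cd86 by 0.97 ± 0.13 (1.74 on recovered reads) and Msr1 by 0.76 ± 0.06 (limma adjusted p = 2.0e-10, 7.9e-05 and 1.1e-06, in that order). Aif1 changed by -1.03 ± 0.15 and Cybb by -0.71 ± 0.07 (adjusted p = 0.00020 and 9.6e-06). Coro1a, at -0.48 ± 0.13 (adjusted p = 0.012), lost its call under median-ratio scaling (adjusted p = 0.071) and with the compared groups alone (0.074). It was -0.85 outside the low mitochondrial share, where IL-33 plus IL-17A has 1 library and the spread comes from the other groups, and -0.29 without IL-33 with IL-17A replicate 1. Among the 62 other myeloid genes 14 rose and 23 fell, led by Tfec (1.63 ± 0.05), Csf2rb (1.33 ± 0.03) and Csf2rb2 (1.15 ± 0.05), with the largest falls for Cd180, Cd5l and Fyb.

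With IL-33 plus IL-13 14 members rose and 21 fell, 74.5% of them, against 49.6% of all genes called, 14.5% higher and 35.1% lower. Under median-ratio scaling the split was 18 rises and 13 falls, as that scaling moved the median of all genes to 0.00 where it was -0.12 in the values as deposited. The members' own median change was -0.18. Clec7a changed by 1.99 ± 0.12, Mrc1 by 1.49 ± 0.06 and Clec4n by 1.41 ± 0.10 (limma adjusted p = 8.4e-08, 1.6e-09 and 1.9e-07, in that order). Aif1 changed by -2.0 ± 0.15, Cybb by -1.73 ± 0.07 and Mpeg1 by -0.98 ± 0.03 (5.0e-07, 2.2e-09 and 5.2e-11). These 6 genes were called with a term for the mitochondrial set as well, with changes of 2.39, 1.66, 1.5, -2.05, -1.56 and -0.96 in the same order. Of the 62 other myeloid genes 11 rose, led by Tfec (2.21 ± 0.05) and the lectin gene Clec10a (1.49 ± 0.13), and 33 fell, led by Cd180 (-1.63 ± 0.09), a relative of the Toll-like receptors.

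The triple combination had the most calls, with 14 members higher and 23 lower, 78.7% of them where 42.7% of all genes were called, 12.6% higher and 30.1% lower. The split was 17 and 15 under median-ratio scaling, which put the all-gene median at 0.00 instead of -0.10. Clec7a changed by 2.25 ± 0.12, Clec4n by 1.94 ± 0.10 and Mrc1 by 1.57 ± 0.06 (limma adjusted p = 1.8e-08, 5.8e-09 and 5.7e-10, in that order). Aif1, Cybb and Coro1a changed by -2.05 ± 0.15, -1.67 ± 0.07 and -1.28 ± 0.13 (2.7e-07, 1.9e-09 and 5.5e-06). At least 2-fold changes with a call, counted on the log2(TPM + 1) scale, were 4 rises and 3 falls among the 47 members, against 5.35% of all genes. Cd86, at 0.89 on that scale, is outside this count, though its means were 2.45 TPM with the triple combination and 0.848 TPM in untreated cultures. Of the 9 uptake receptor genes 7 rose and Trem2 fell. Mertk, a receptor for apoptotic cells, was called lower too (-0.15, adjusted p = 0.043), and this call was lost under each of 5 alternatives, among them median-ratio scaling (-0.05, 0.43) and the compared groups alone. Of the 62 other myeloid genes 12 rose and 27 fell, led by Tfec (2.29 ± 0.05) and Cd180 (-1.59 ± 0.09).

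**Figure D4:**
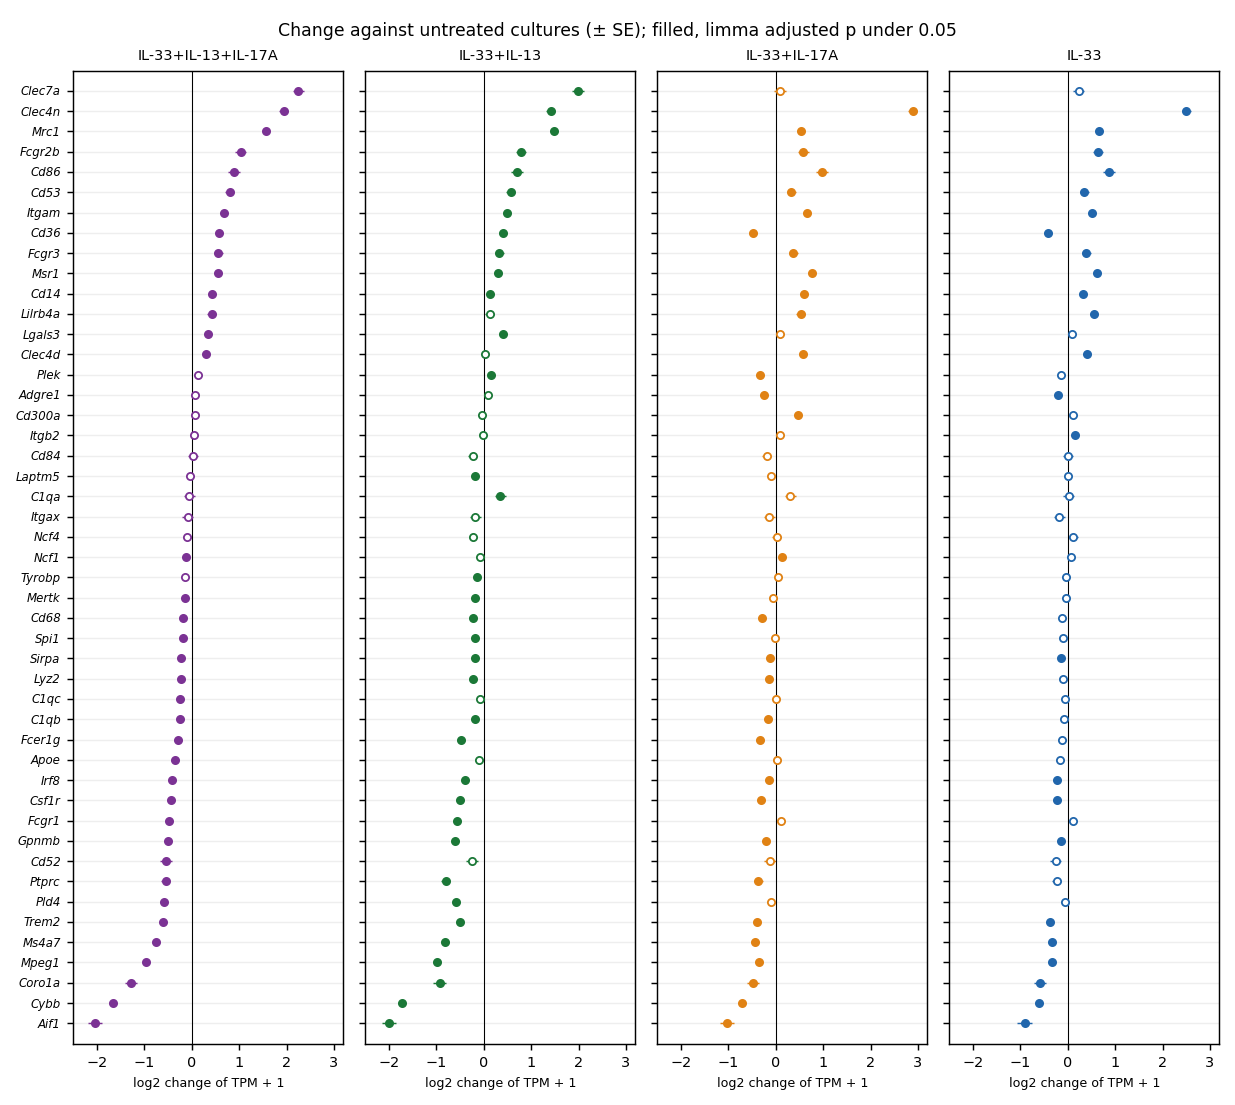
Log2 change of TPM + 1 of each member against untreated cultures for the 4 cytokine conditions, with bars for the SE and filled points for a limma adjusted p under 0.05. Clec7a lies near 2 with IL-13 (2.25 and 1.99) and near 0 without it (0.09 and 0.23), and Clec4n is at 1.41 or more in all 4 panels.

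Adding IL-13 to IL-33 was then read from IL-33 with IL-13 against IL-33. Of the 47 members 6 rose and 23 fell, 61.7% of them, where 32.4% of all genes were called, 10% higher and 22.4% lower. Under median-ratio scaling 9 rose and 15 fell. Clec7a averaged 36.8 ± 2.64 TPM with IL-33 plus IL-13 and 10.1 ± 0.48 TPM with IL-33 (SD, n = 3 each), which on the log2 scale was 1.77 ± 0.12 (SE, adjusted p = 1.0e-06 by limma). Mrc1 rose by 0.84 ± 0.06 and Cd36 by 0.82 ± 0.08 (1.3e-06 and 1.5e-05). Cybb averaged 16.9 ± 0.33 TPM with IL-33 plus IL-13 and 37.8 ± 3.10 TPM with IL-33 (SD, n = 3 each), a change of -1.11 ± 0.07 (adjusted p = 5.8e-07). Clec4n changed by -1.10 ± 0.10 and Aif1 by -1.09 ± 0.15 (6.5e-06 and 0.00027).

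Of the oxidase genes, Cybb kept its lower call on addition of IL-13 under each alternative run. Ncf1, at -0.16 ± 0.04, lost its call under median-ratio scaling and on recovered reads (-0.07 in both, adjusted p = 0.23), and Ncf4, at -0.34 ± 0.09, with a term for the low mitochondrial share (-0.11, 0.61). Of 7 secreted and lysosomal genes 5 fell, among them Mpeg1 (-0.66 ± 0.03), the endolysosomal nuclease gene Pld4 (-0.54 ± 0.07) and the glycoprotein gene Gpnmb (-0.47 ± 0.03), while Lgals3, the lectin galectin 3, rose by 0.32. The other 2 falls, of Lyz2 and Laptm5, were lost under median-ratio scaling. Of 9 uptake receptor genes 3 rose and 5 fell, so the group did not move one way. This comparison is wholly between libraries inside and outside the low mitochondrial share. With a term for that set 20 members were called, 8 higher and 12 lower, 16 of them among the 29, and the 6 genes with the largest changes kept their calls with changes between -1.14 and 2.16.

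Adding IL-13 to IL-33 plus IL-17A was read from the triple combination against IL-33 with IL-17A, which share no library with the comparison above. Here 8 members rose and 22 fell, 63.8% of them, where 15.8% of all genes were called, 6.7% higher and 9.14% lower. Clec7a averaged 44.3 ± 5.51 TPM with the triple combination and 9.22 ± 2.08 TPM with IL-33 plus IL-17A (SD, n = 3 each), which on the log2 scale was 2.16 ± 0.12 (SE, adjusted p = 2.7e-07 by limma). Cd36 rose by 1.06 ± 0.08 and Mrc1 by 1.04 ± 0.06 (2.7e-06 and 3.1e-07). Aif1 changed by -1.03 ± 0.15, Cybb by -0.96 ± 0.07 and Clec4n by -0.95 ± 0.10 (0.00059, 3.1e-06 and 3.1e-05). Outside the low mitochondrial share the triple combination has 2 libraries and IL-33 plus IL-17A has 1, whose spread is taken from the other groups. There 21 members were called, 19 of them shared with the 30. The change was then 1.95 for Clec7a, 1.14 for Cd36, 0.97 for Mrc1, -0.98 for Cybb, -0.93 for Clec4n and -0.60 for Aif1, all called. Coro1a, at -0.80 ± 0.13 in all libraries, had no call there (-0.43, adjusted p = 0.12). The count was 22 without replicate 2 of the triple combination.

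The 2 readings of IL-13 had the same sign for 38 of 47 members (80.9%), against 59.5% of all genes tested. Adgre1, Cd36, Clec7a, Lgals3, Mrc1 and Plek were called higher in both, 12.8% of the members against 3.88% of all genes. Called lower in both were 14 members, 29.8% against 5.75% of all genes, namely Aif1, Cd14, Clec4d, Clec4n, Cybb, Fcgr1, Gpnmb, Irf8, Mpeg1, Ms4a7, Msr1, Ncf1, Pld4 and Trem2. The 6 higher calls held under the 7 alternatives that were fitted to both readings, which do not include leaving out single libraries. Outside the low mitochondrial share only the reading with IL-17A could be fitted. Lgals3 was at 0.22 there and lost its call, with 1 library for IL-33 plus IL-17A. Of the 14 lower calls 10 held under median-ratio scaling and on recovered reads (without Cd14, Irf8, Ncf1 and Trem2), 9 with the mitochondrial term and 8 with the compared groups alone. No member was called in opposite directions. Adgre1 rose by 0.29 ± 0.04 and 0.31 ± 0.04 and Plek, a substrate of protein kinase C in blood cells, by 0.29 ± 0.05 and 0.45 ± 0.05, without and with IL-17A. Of the genes higher in both, Clec7a, Cd36 and Lgals3 hold TTCNNNNGAA in the promoter window and Mrc1 and Plek do not. Adgre1 had no match recorded, and not every member had a promoter window. Ms4a7, called lower in both, holds these letters too. A link between the letters and the changes was not tested. Other myeloid genes showed 7 rises and 30 falls without IL-17A and 6 and 18 with it. Clec10a, the galactose-type lectin CD301, changed by 1.36 ± 0.13 and 1.25 ± 0.13, and its paralogue Mgl2 by 0.80 ± 0.16 and 0.79 ± 0.16. The Mincle gene Clec4e changed by -1.40 ± 0.13 and -1.24 ± 0.13, and the bacterial lipoprotein receptor gene Tlr2 by -1.26 ± 0.07 and -0.99 ± 0.07.

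**Figure D5:**
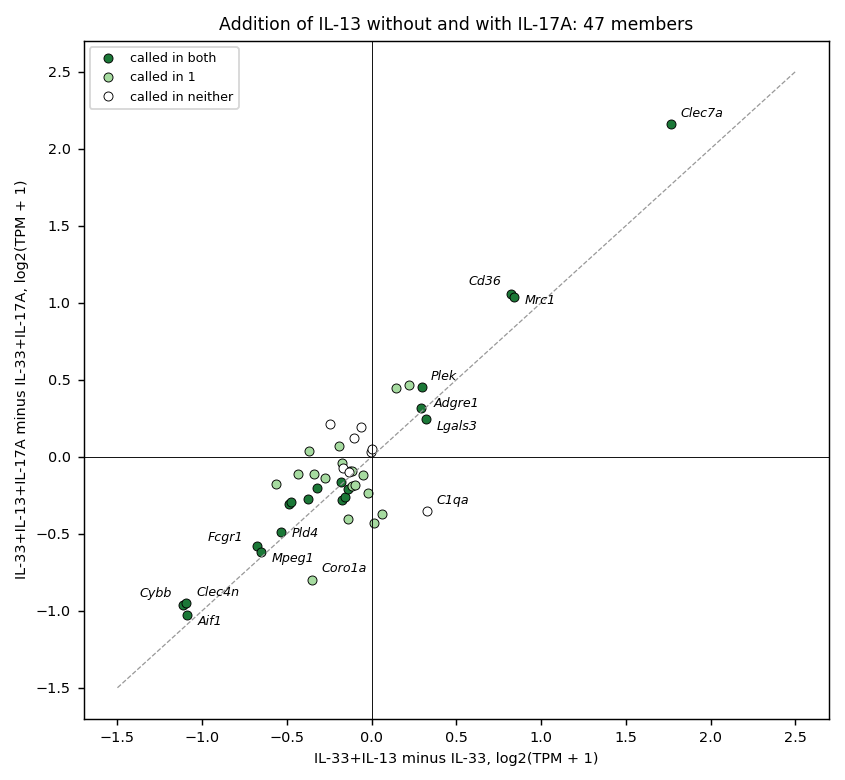
Log2 change of TPM + 1 on addition of IL-13, without IL-17A on the x axis and with IL-17A on the y axis, for the 47 members, with a dashed line of equality and shading by the number of comparisons with a limma adjusted p under 0.05. Clec7a lies at the upper right (1.77 and 2.16), Cybb, Clec4n and Aif1 at the lower left near -1, and C1qa at 0.33 and -0.35.

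IL-17A moved few members. Added to IL-33 it raised 4 and lowered 1, 10.6% of the members where 9.76% of all genes were called, 3.54% higher and 6.22% lower, so the members' share was near that of all genes. Clec4n changed by 0.38 ± 0.10, Cd300a, an inhibitory lipid-binding receptor gene, by 0.36 ± 0.07, Cd14 by 0.27 ± 0.05 and Itgam by 0.16 ± 0.03 (limma adjusted p = 0.024, 0.0054, 0.0042 and 0.0054, in that order). Cd300a had 20.3, 23.2 and 22.1 TPM with IL-33 plus IL-17A against 17.5, 17.0 and 16.0 TPM with IL-33, with no overlap. Plek had 57.5, 56.4 and 54.8 TPM with IL-33 plus IL-17A against 62.2, 63.8 and 67.7 TPM with IL-33, a change of -0.20 ± 0.05 (0.023). The number of calls was 3 without IL-33 replicate 2 and 16 without IL-33 with IL-17A replicate 1, the library of that group outside the low mitochondrial share. It was 1, Itgam, when only libraries outside that share were used, which leaves 1 library with IL-33 plus IL-17A and takes its spread from the other groups. Clec4n, whose groups did not overlap, missed the threshold when any of 5 libraries was left out (adjusted p 0.052 to 0.095).

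Added to IL-33 plus IL-13, IL-17A raised 5 members and lowered none, 10.6% where 7.45% of all genes were called, 3.4% higher and 4.05% lower. Clec4n averaged 29.7 ± 1.78 TPM with the triple combination and 20.3 ± 1.19 TPM with IL-33 plus IL-13 (SD, n = 3 each), which on the log2 scale was 0.53 ± 0.10 (SE, adjusted p = 0.0053 by limma). Cd14 changed by 0.29 ± 0.05, Clec4d, a lectin that pairs with Mincle, by 0.27 ± 0.06, Msr1 by 0.26 ± 0.06 and Itgam by 0.19 ± 0.03 (0.0041, 0.017, 0.024 and 0.0023, in that order). Clec4d had 123, 126 and 130.2 TPM with the triple combination against 109, 97.3 and 108 TPM with IL-33 plus IL-13. The number of calls was 3 without IL-33 with IL-13 replicate 2 and 16 without replicate 1 of the triple combination, the library of that group inside the low mitochondrial share. With a term for that share 2 calls remained, Cd14 and Itgam. Cd14, Clec4n and Itgam were called higher in both readings of IL-17A, 6.38% of the members against 1.71% of all genes. The sign was the same for 17 of 47 members (36.2%), against 44.7% of all genes, and 40 members were called in neither. The readings cross the low mitochondrial share in opposite directions. Added to IL-33, IL-17A sets libraries mostly inside that share against libraries outside it. Added to IL-33 plus IL-13, it sets libraries mostly outside that share against libraries inside it. The part of this split in the signs was not tested.

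Whether IL-13 and IL-17A acted on the members other than additively on the log2 scale was tested as an interaction in the presence of IL-33. No member was called by limma on log2(TPM + 1), where 0.338% of all genes were, 16 members had an unadjusted p under 0.05 against 27.0% of all genes, and the smallest adjusted p was 0.076, for C1qa (-0.68 ± 0.17). With a term for the low mitochondrial share C1qa was at -0.13 and Apoe, at -0.43 without it, at -0.10, and every member's adjusted p was above 0.99. On recovered reads limma-voom called 5 members, C1qa, C1qc, Apoe, Cd84 and Fcer1g, and 19 had an unadjusted p under 0.05. The interaction contrasts the groups in which the low mitochondrial share is unevenly spread, and leaving out IL-33 with IL-17A replicate 1 gave 17 calls.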

How the data were processed

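RNA sequencing was analysed for 15 libraries of total RNA, sequenced on a NovaSeq6000 per the labels' protocols. The submitters' processing notes name HISAT2, without a version, and mm10. The authors deposited TPM, 1 value a gene in each library, which divide reads by gene span and sum to 1000000. Not given in the sources used here are the quantifier, its use of strand and its rule for reads that match several genes. Reads were recovered from TPM, the span and the value of 1 read. Of low values up to 20 reads, 89.4% to 90.8% came out whole within a tolerance of 0.03. Exon lengths came from GENCODE vM21 (18062 of 18078 identifiers matched, 17882 with the same span).

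Limma 3.58.1 in R 4.3.3, with its trend and robust options, was fitted to log2(TPM + 1) of all 15 libraries with 1 mean a group. The filter asked for 1 TPM or more in 3 libraries or more and kept 13887 genes, all 47 members among them. P-values are two-sided, with Benjamini-Hochberg adjustment over all genes of each of 9 comparisons, and calls needed an adjusted p under 0.05. Changes are those of log2(TPM + 1), a scale that shrinks changes of low genes. TPM are relative to each library's total, so RNA per cell was not measured. The fit was tested on simulated data. Tables were handled with Python 3.11.15, pandas 2.3.3 and numpy 2.4.6.

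The members and lists were chosen with earlier results of these data known. Values in every library are given for Adgre1, Csf1r, Ptprc, Spi1 and the member with the highest mean TPM of each role, and each comparison names the called members with the 3 largest and 3 smallest changes. Other myeloid genes are named by the same rule of 3, and markers of other cells where they lead their list. Other members were chosen for mention after their values were seen. Alternatives were pseudocount 0.1, no filter, a filter at 5 TPM, median-ratio scaling, the compared groups alone, a term for or the exclusion of libraries with a mitochondrial share under 4.5%, each library left out, and, chosen after seeing the data, limma-voom on recovered reads.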

Additional observations from a re-analysis of the deposited data

How the results depend on the processing

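Of the 46 changes of the 3 most raised and 3 most lowered members of each comparison, each under 13 or 14 alternatives, 592 of 625 values kept direction and call, 33 kept direction but lost the call, and none reversed. The lost calls were those of Coro1a with IL-33 and IL-17A against untreated and of 8 changes on addition of IL-17A (Plek, Itgam, Cd14, Cd300a and Clec4n with IL-33, and Msr1, Clec4d and Clec4n with IL-33 and IL-13). The number of members called on addition of IL-17A to IL-33, 5 of 47, was 8 under median-ratio scaling, 2 with the compared groups alone, 1 in libraries outside the low mitochondrial share and 9 by limma-voom on recovered reads. For IL-17A added to IL-33 and IL-13, 5 calls became 2 with a term for that share and 14 by limma-voom. The 30 calls for IL-13 added to IL-33 and IL-17A became 17 with the compared groups alone, and the 0 calls of the interaction became 5 by limma-voom. The causes were not tested. Leaving out each library of the compared groups in turn gave 34 to 37 calls for the triple combination against untreated, 29 to 33 for IL-33 with IL-13, 28 to 35 for IL-33 with IL-17A and 19 to 21 for IL-33. It gave 23 to 27 for IL-13 added to IL-33, 22 to 32 for IL-13 added to IL-33 and IL-17A, 3 to 16 for each addition of IL-17A, and 0 to 17 for the interaction. Comparisons with IL-33 and IL-13 have no value outside the low mitochondrial share, as that group lies wholly inside it. No paired analysis was possible because the labels give no replicate numbers, animals or batches. Aif1 rests on as few as 11 reads a library.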
